A study of Homo sapiens with 7 samples.

Results

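The mitochondrial ribosomal protein genes (MRP genes) are the nuclear genes whose symbols begin with MRPL or MRPS followed by a number and, in a few cases, a letter from A to C. Of the 16044 genes listed in the 3 deposited tables, 76 met this rule. They were 47 MRPL genes, which were named for the large subunit, and 29 MRPS genes, which were named for the small subunit. Only sites on the strand of the gene were taken, which gave 170 MRP polyadenylation sites (PASs) of 51882 in the table of batch 1, 180 of 44595 in that of the double knockdown (KD) and 164 of 34849 in that of batch 2. MRPL50 and MRPS28 had no row in the table of batch 2.

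The 7 libraries came from HEK293, an established human embryonic kidney cell line, in which siRNAs targeted the nuclear poly(A) polymerases Star-PAP (gene TUT1, siStar-PAP), PAPα (PAPOLA, siPAPα), PAPγ (PAPOLG, siPAPγ) or PAPα and PAPγ together (siPAPα+γ), or in which a control siRNA (siCtrl) was used. The 3′READS protocol served for siCtrl and the single KDs of batch 1 and for the double KD, whose label gives no batch and whose table repeats siCtrl of batch 1. A newer protocol, 3′READS+, served for the 2 libraries of batch 2, siCtrl and siStar-PAP. No condition was replicated within a batch, and a second library existed for siCtrl and siStar-PAP alone. An siRNA lowers a transcript and does not delete the gene.

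The mitochondrial ribosome translates the few mRNAs encoded by mitochondrial DNA, which code for subunits of the respiratory chain and the ATP synthase. Its RNAs are made inside the organelle, whereas its proteins are encoded in the nucleus, translated in the cytosol and imported. MRP mRNAs are therefore cleaved and polyadenylated by the nuclear machinery, in which a hexamer such as AAUAAA lies upstream of the cleavage site and a poly(A) polymerase adds the tail. A gene with several PASs can make mRNAs that differ in the length of the 3′UTR or, when an upstream intronic PAS is used, in the coding sequence.

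A 3′READS read that carries untemplated As marks the last base of an RNA before its tail and is called a PASS read. One such read comes from each sequenced 3′ end regardless of the length of the RNA, and levels are given as RPM, the reads scaled to the PASS read total of the library. The siCtrl libraries of the 2 protocols differed at many genes, as given below, so that an order of genes by RPM describes these libraries only. The sense reads in the tables ranged from 2347192 after siStar-PAP of batch 2 to 16191098 after siPAPα, of which MRP genes held 0.904–1.26%. RPM values are relative, so that a change in RNA per cell and a change in the share of an RNA cannot be told apart. TUT1 had 83 reads in siCtrl and 2 after siStar-PAP of batch 1, and PAPOLA had 71 in siCtrl, 12 after siPAPα and 8 after siPAPα+γ. With 5 reads in siCtrl and 15 after siPAPγ, PAPOLG gave no check of its label, nor did TUT1 with 6 and 4 reads in batch 2. Of the HEK293 markers, KRT18 had 11580–37608 reads, VIM 340–2019, LIN28B 77–193, NEFM 1–280, KRT8 2–59 and PAX2 0–14. Of the markers of other cell types, COL1A1 had 0–12 reads and PTPRC, ALB, HBB and MYH7 were not listed.

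The sites that carry the results on PAS use are shown first, as the 30 bases that end at the listed PAS, 5′ to 3′ on the strand of the gene, read from the hg19 genome. Capitals mark AATAAA or, where it is absent, ATTAAA. They are shown because their shares of the reads of the gene differed between some KD libraries and siCtrl of the same table. MRPL19, MRPL3, MRPL2 and MRPL14 encode proteins of the large subunit with bacterial counterparts, and MRPS11 encodes one of the small subunit.
MRPL19, 5′-most PAS, chr2:75882848-75882877, plus strand: tttaataagatctcagaagactccagtaaa
MRPL19, 3′-most PAS, chr2:75889303-75889332, plus strand: ccaggAATAAAccctattatcttttttata
MRPL3, upstream main PAS, chr3:131181218-131181247, minus strand: tttATTAAAgttttgtcaatctttgtgaaa
MRPL3, downstream main PAS, chr3:131181056-131181085, minus strand: aaaggaaagacAATAAAatcataaattatc
MRPL2, intronic PAS, chr6:43025678-43025707, minus strand: aggaatgtaATTAAAaagcacttatttggc
MRPL2, upstream PAS of the 3′-most exon, chr6:43021970-43021999, minus strand: ctAATAAAatgccccccccccccgttttaa
MRPL2, 3′-most PAS, chr6:43021767-43021796, minus strand: cggggatggaAATAAAtgacgtccaaggtc
MRPL14, upstream main PAS, chr6:44081431-44081460, minus strand: atcctgtgagagAATAAAtgtattcattta
MRPL14, downstream main PAS, chr6:44081372-44081401, minus strand: ggaaAATAAAttacactgaagcagttgaaa
MRPS11, intronic PAS, chr15:89011460-89011489, plus strand: agagtaaatgttcagtgaacattcgttaaa
MRPS11, main PAS of the 3′-most exon, chr15:89021589-89021618, plus strand: aaatataaatgtgagttgctatttaccaga

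The upstream MRPL3 PAS has ATTAAA, whereas the downstream one, 162 nt away, has AATAAA. Neither MRPS11 window holds either hexamer, also when the window is widened to 40 nt. At the 5′-most PAS of MRPL19 an AATAAA lies within 40 nt but not wholly within the bases shown. In GENCODE, the MRPL19, MRPL3, MRPL2 and MRPL14 sites lie in UTRs, the main 3′-most-exon PAS of MRPS11 also in a UTR, and the intronic PAS of MRPS11 in an exon of another of its transcripts.

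Most MRP genes used few PASs. In the table of batch 1, 73 MRP genes had more than 50 reads over the 4 libraries, with a median of 2 PASs against 3 over all 11858 such genes. A single PAS was listed for 34 of them (46.6%, against 22.6% of all genes), and 31.5% had at least 3 (against 59.2%). In 12 MRP genes (16.4%, against 40.7%) an intronic PAS was listed. For the 36 with several PASs in the 3′-most exon, the median distance between the outermost ones was 577 nt, against 2028 nt over all genes. The traits were shared by the 77 cytosolic ribosomal protein genes with more than 50 reads. Of these, 57.1% had a single PAS, 23.4% at least 3 and 10.4% an intronic PAS, and the median distance was 673 nt. In the table of the double KD, 34.3% of MRP genes had a single PAS, against 21.8% of all genes, and in batch 2 40%, against 27%. The median distances were 583 against 1314.5 nt and 607 against 1207 nt, in the same order. By both measures MRP genes and all genes lay closer together there than in batch 1. These are counts over the listed sites, and no test was made of them.

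The most-read PAS of a MRP gene carried AATAAA in the 40 nt before the site in 51 of 73 genes (69.9%, against 63.6% of the most-read PASs of all genes), ATTAAA without AATAAA in 8 (11%, against 16.8%) and neither in 14 (19.2%, against 19.6%). The trimer ATA between 100 and 41 nt upstream was found in 47.9% of them, against 54.9%. Only the strand of the RNA was searched. All 76 members matched GENCODE by symbol, and 38 of the 230 member sites, counted over the 3 tables, also lay in another gene of the same strand, so that their reads cannot be given to 1 of the genes.

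One gene held most of the MRP reads labelled as upstream of the 3′-most exon. MRPL43, a protein of the large subunit specific to mitochondria, had its main PAS at position 102746026 of chr10, which the table labels intronic and GENCODE places in a UTR of MRPL43. It took 100% of the MRPL43 reads in the 4 libraries of batch 1, 98.3% after siPAPα+γ and 94.2–94.6% in batch 2. With it, 2.41–3.98% of MRP reads lay upstream. Without MRPL43 the share was 0.367% in siCtrl, 0.556% after siStar-PAP, 0.226% after siPAPα and 0.258% after siPAPγ of batch 1. It was 0.308% after siPAPα+γ against 0.388% for siCtrl in the same table, 0.79% in siCtrl of batch 2 and 0.923% after siStar-PAP of batch 2. Of the upstream reads outside MRPL43 in batch 1, MRPS11 alone held 241 of 359 in siCtrl and 560 of 700 after siStar-PAP. It held 188 of 398 after siPAPα and 170 of 244 after siPAPγ, so that differences between these shares rested largely on 1 gene.

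MRP genes had a higher median RPM than all genes in each library, with a range of several orders of magnitude. Their median was 44.1 RPM in siCtrl, 31.8 after siStar-PAP, 42.9 after siPAPα and 36.2 after siPAPγ of batch 1, 39.3 after siPAPα+γ, and 30.2 in siCtrl and 35.7 after siStar-PAP of batch 2. Over all genes the median of siCtrl was 6.21 RPM in batch 1 and 6.73 in batch 2. The 5 highest MRP genes together held between 35.3% and 46.5% of all MRP reads of a library.

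MRPS12, the counterpart of the bacterial protein S12 at the decoding centre, had the highest mean. It had 1321 RPM in siCtrl, 1666 after siStar-PAP, 778 after siPAPα and 687 after siPAPγ of batch 1, 1015 after siPAPα+γ, 620 in siCtrl of batch 2 and 510 after siStar-PAP of batch 2. It stood first among the members in 4 libraries, MRPS18B stood first in siPAPα, and MRPS16, a small-subunit protein, stood first in both libraries of batch 2.

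MRPS18A, MRPS18B and MRPS18C are paralogs of bacterial S18, and all were highly expressed in batch 1. In siCtrl of batch 1 they had 419, 829 and 330 RPM, in this order. In siCtrl of batch 2 they had 94.1, 223 and 5.94 RPM. MRPS18B led the paralogs in every library. MRPS18C lay above MRPS18A in the 4 KD libraries outside batch 2 and below it in both siCtrl libraries and in siStar-PAP of batch 2. Neighbours in the order of means overlapped in their ranges over libraries, such as MRPS16 (67.8–1246 RPM) and MRPS18C (5.94–531 RPM).

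At the other end stood MRPL44, MRPL32, MRPL45, MRPS9 and MRPL50. MRPL44, which belongs to the ribonuclease III family, had 0.941–3.50 RPM. MRPL50 had no read in siCtrl of batch 1 and 0.0676–0.532 RPM in the 4 KD libraries outside batch 2. A count of 0 allows up to 3 reads.

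**Figure D1:**
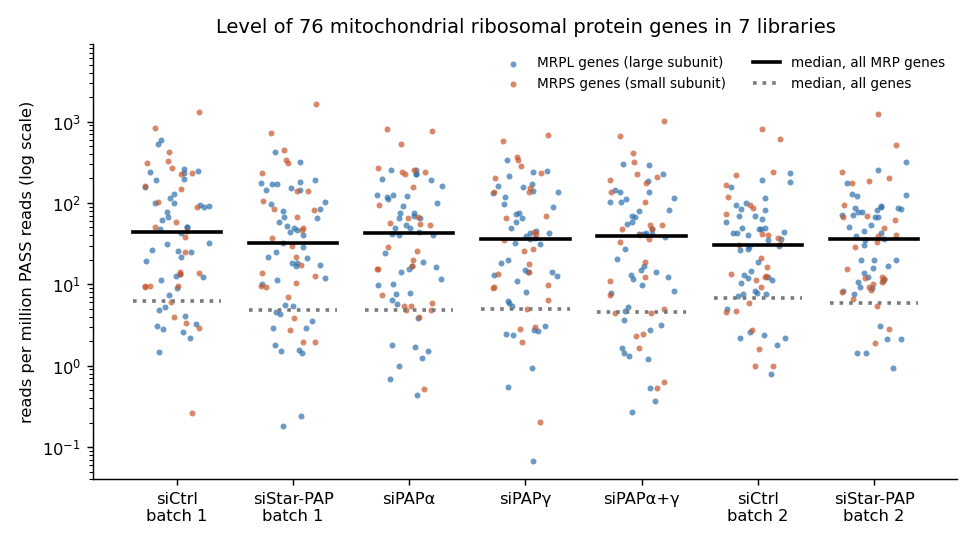
Level of each of the 76 MRP genes (RPM, log axis) in the 7 libraries, 1 point per gene, with MRPL genes in blue and MRPS genes in orange. Black lines mark the median over MRP genes and dotted grey lines that over all genes, and genes without reads are not drawn. The MRP median lies above that of all genes in each library, for example at 44.1 against 6.21 RPM in siCtrl of batch 1.

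The siCtrl libraries of the 2 batches differed widely at MRP genes. Of the 70 with more than 50 reads over both, 10 were more than 4-fold higher and 16 more than 4-fold lower in batch 2, together 37.1%, against 33.1% of 9743 genes. The median log2 ratio of batch 2 to batch 1 was −1.12 for MRP genes and −0.39 for all genes. MRPS18C had 3771 reads in batch 1 and 30 in batch 2 (log2 ratio −5.80), and MRPL24 had 1007 and 11 (−5.34). In the opposite direction, MRPL39 had 61 and 508 reads (4.24), and MRPL22 had 0 and 204. Both are siCtrl cells, and the batches differ in protocol and in all else that goes with a batch, which cannot be told apart. Levels are therefore set against siCtrl of the same table only.

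The main PAS of MRPS18C and MRPL24 is the same position in both tables. Their windows, with the hexamer in capitals, are shown together with those of MRPL34, MRPL38 and MRPL21, each of which has 1 listed PAS and on which the comparisons that follow turn.
MRPS18C, chr4:84382361-84382390, plus strand: gttaccactAATAAActtattttacagtaa
MRPL24, chr1:156707095-156707124, minus strand: cagatgccAATAAAgagcactttatgagtc
MRPL34, chr19:17417618-17417647, plus strand: ttaaacgtgtAATAAAtgttcaaagttcca
MRPL38, chr17:73894725-73894754, minus strand: gaatgtgAATAAAcatgatttcttgccggg
MRPL21, chr11:68658746-68658775, minus strand: ggataaaAATAAActcctgcttcccaagga

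**Figure D2:**
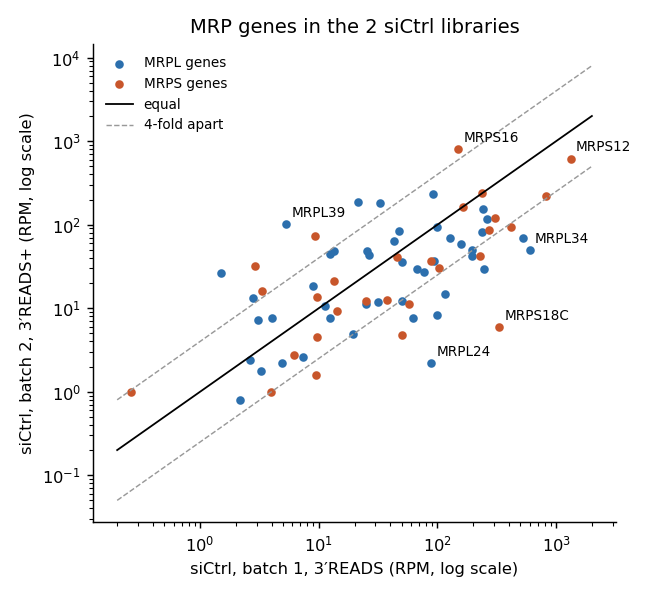
MRP genes in siCtrl of batch 1 (3′READS, x axis) and of batch 2 (3′READS+, y axis), in RPM on log axes, 1 point per gene with reads in both. The solid line marks equal levels and dashed lines a 4-fold difference, with MRPS18C and MRPL24 far below and MRPL39 far above.

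To ask how MRP mRNAs responded to the loss of a polymerase, each KD library was compared with siCtrl of its own table over genes with more than 50 reads in the pair. With 1 library on each side no test was possible, and a ratio above 2-fold is a description of these libraries. In siStar-PAP of batch 1, 0 of 72 MRP genes were more than 2-fold higher, against 4.44% of all genes, and 9 (12.5%) more than 2-fold lower, against 26.2% of all genes. In siPAPα, 2 of 73 were higher (all genes, 8.5%) and 9 lower (22.1%). For siPAPγ the numbers were 1 of 71 higher (5.67%) and 8 lower (20.7%), and for siPAPα+γ 0 of 70 higher (6.98%) and 13 lower (26.5%). In siStar-PAP of batch 2, 5 of 65 were higher (3.55%) and 0 lower (11.7%).

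Median log2 ratios gave the same order of MRP and all genes in 4 comparisons. The MRP median was −0.21 against −0.45 for all genes in siStar-PAP of batch 1, 0.22 against −0.16 in batch 2, −0.02 against −0.26 after siPAPα and −0.16 against −0.33 after siPAPγ. In siPAPα+γ it was −0.37 against −0.38. The 4 comparisons outside batch 2 share the siCtrl library of batch 1. MRP genes had a higher median RPM than all genes, and the part of this in the distance between the medians was not tested. With at least 200 reads in the pair, that distance went from 0.24 to 0.18 in siStar-PAP of batch 1 and from 0.39 to 0.36 in batch 2. It went from 0.24 to 0.20 after siPAPα, from 0.17 to 0.13 after siPAPγ and from 0.008 to 0.006 after siPAPα+γ.

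The direction of single genes depended on the scale. With TMM factors in place of PASS totals, every log2 ratio was 0.47 higher in siStar-PAP and 0.34 higher in siPAPα of batch 1, 0.36 higher in siPAPγ, 0.43 higher in siPAPα+γ and 0.18 higher in siStar-PAP of batch 2. The numbers more than 2-fold higher and lower then became 7 and 5 after siStar-PAP of batch 1, 12 and 4 after siPAPα, 5 and 1 after siPAPγ, 5 and 5 after siPAPα+γ, and 6 and 0 after siStar-PAP of batch 2. With TMM factors, 11.4% of all genes were higher and 13% lower after siStar-PAP of batch 1. The shares of all genes were 15% and 13.8% after siPAPα, 10.9% and 11.4% after siPAPγ, and 14.7% and 15% after siPAPα+γ. In siStar-PAP of batch 2 they were 5.98% and 8.26%. With the totals of the tables the numbers of MRP genes were 0 and 9, 4 and 7, 3 and 2, 3 and 8, and 4 and 0, in the same order. The MRP median was then above 0 in all 5 comparisons with TMM factors, 0.26 after siStar-PAP of batch 1 and 0.06 after siPAPα+γ, whereas its distance from the median of all genes does not depend on the scale.

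**Figure D3:**
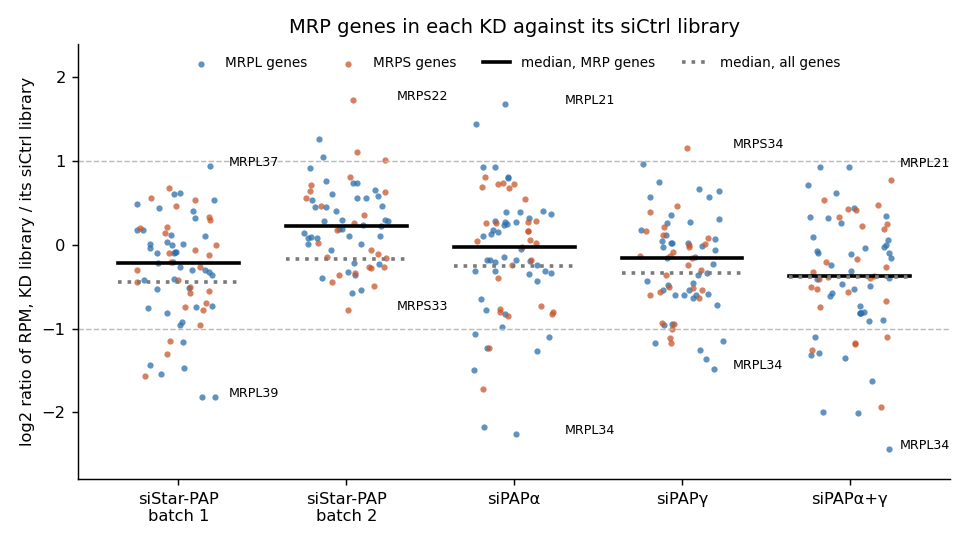
Log2 ratio of RPM in each KD library to siCtrl of its table for the 65 to 73 MRP genes with more than 50 reads in the pair, 1 point per gene, with the highest and the lowest named. Solid black lines mark the MRP median, dotted grey lines that of all genes, and dashed lines 2-fold. MRPL34 is lowest in siPAPα, siPAPγ and siPAPα+γ.

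MRPL34, the counterpart of the bacterial large-subunit protein L34, had the lowest ratio of the members in siPAPα, siPAPγ and siPAPα+γ. Its level was 598 RPM in siCtrl of batch 1, 169 after siStar-PAP, 125 after siPAPα, 213 after siPAPγ and 111 after siPAPα+γ. The siCtrl library was the high one, and the 4 KD libraries lay within 2-fold of each other. The log2 ratios were −1.82, −2.26, −1.49 and −2.43, with a counting interval of −2.50 to −2.36 for the last. MRPL34 remained more than 2-fold lower in all 4 with TMM factors (−1.12 after siPAPγ, the nearest to 0). In batch 2 the direction was the opposite, with 49.1 RPM in siCtrl and 77.2 after siStar-PAP, a log2 ratio of 0.65.

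MRPL38, a large-subunit protein specific to mitochondria, was the other member more than 2-fold lower in all 4 comparisons with siCtrl of batch 1. It had 32.6 RPM in siCtrl and 12 after siStar-PAP, 11.6 after siPAPα, 12.7 after siPAPγ and 8.19 after siPAPα+γ. With TMM factors 2 of the 4 no longer passed 2-fold, at −0.97 after siStar-PAP and −0.99 after siPAPγ. In batch 2 MRPL38 was also lower, from 182 RPM in siCtrl to 125 after siStar-PAP, a log2 ratio of −0.54.

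MRPS21, MRPL13, MRPL19 and MRPL39 were more than 2-fold lower in 3 comparisons each on the scale of PASS totals. With TMM factors this held in 2 comparisons each for MRPS21, MRPL13 and MRPL39 and in 0 for MRPL19. MRPS21, the counterpart of bacterial S21, had 308 RPM in siCtrl of batch 1 and 104 after siStar-PAP, 93.5 after siPAPα, 204 after siPAPγ and 137 after siPAPα+γ, so that siCtrl was again above all KD libraries. MRPL39 had 5.34 RPM in siCtrl, 1.51 after siStar-PAP, 5.74 after siPAPα, 2.37 after siPAPγ and 1.33 after siPAPα+γ, and thus differed little from siCtrl in siPAPα. These levels rested on 25 to 144 reads per library.

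MRPL3, which lies near the peptidyl transferase centre, was among the 3 lowest members in siPAPγ, with 47.3 RPM in siCtrl and 19.9 after siPAPγ, a log2 ratio of −1.25. MRPL4 was among the lowest in siPAPα, with 35 reads in siCtrl and 17 after siPAPα (3.06 and 0.678 RPM, log2 ratio −2.18, counting interval −3.10 to −1.30).

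On the scale of PASS totals, few members were more than 2-fold higher. MRPL21, the counterpart of bacterial L21, had 21.4 RPM in siCtrl, 18.4 after siStar-PAP, 68.8 after siPAPα, 36.2 after siPAPγ and 40.9 after siPAPα+γ. Its log2 ratio was 1.68 after siPAPα (counting interval 1.49 to 1.88) and −0.22 after siStar-PAP, and the latter changed sign with TMM factors. MRPL49 had 2.80 RPM in siCtrl and 7.61 after siPAPα, and its 4 KD libraries all lay above siCtrl. MRPS34, a small-subunit protein specific to mitochondria, had 2.89 RPM in siCtrl and 6.42 after siPAPγ, on 33 and 95 reads. MRPL37 stayed under 2-fold on the scale of PASS totals, with 25.6 RPM in siCtrl, 49.1 after siStar-PAP, 48.9 after siPAPα, 39.8 after siPAPγ and 41.9 after siPAPα+γ, and siCtrl was the lowest of the 5. With TMM factors its log2 ratios were 1.41, 1.27, 1.00 and 1.15 in the order of the KD libraries, all past 2-fold.

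In all, 74 MRP genes could be compared in at least 1 pair and 63 in all 5. On the scale of PASS totals, 45 of the 74 were never more than 2-fold from siCtrl in the pairs in which they could be compared. These 45 include members compared in few pairs, such as MRPL22 in 1 and MRPL33 in 2. Neither this count nor that of members lower in several comparisons was set against all genes. On the same scale, MRPL19 and MRPS22 passed 2-fold in both directions, in different pairs. With TMM factors neither was more than 2-fold lower, MRPS22 being at −0.75 after siPAPγ. MRPL19 had 94 RPM in siCtrl and 65.1 after siStar-PAP, 39.9 after siPAPα, 42.6 after siPAPγ and 38.1 after siPAPα+γ, and in batch 2 it had 36.4 in siCtrl and 87.5 after siStar-PAP. MRPS22, a small-subunit protein specific to mitochondria, had 6.13 RPM in siCtrl and 2.84 after siPAPγ, and in batch 2 it had 2.77 in siCtrl and 9.18 after siStar-PAP, on 14 and 39 reads.

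The KD of Star-PAP was measured in both batches, so its effect on MRP mRNAs could be tested with edgeR, blocked by batch, which leaves 1 residual degree of freedom. No MRP gene passed an adjusted p of 0.05. The numbers were 0 up and 0 down of 74 tested, against 1.23% up and 1.08% down over all genes. At an unadjusted p below 0.05, 11 MRP genes were up and 0 down, against 7.75% and 7.21% of all genes. The median log2 fold change was 0.36 over MRP genes, with 56 of 74 above 0, and −0.00 over all genes.

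MRPL15, of the large subunit, had the lowest adjusted p in edgeR (0.116), at a log2 fold change of 1.05 (SE 0.34). It had 12.3 RPM in siCtrl and 17.3 after siStar-PAP of batch 1, and 44.4 and 84 RPM in batch 2. The next were MRPL37 (log2 fold change 1.06), MRPS7 (1.01), MRPS18C (1.06), MRPL41 (1.13), MRPS2 (1.02) and MRPS6 (0.90). In each batch the RPM of these 7 genes was higher in siStar-PAP than in siCtrl. They were chosen by their p in these same libraries, so that this agreement is no separate support. MRPS7 had 269 and 314 RPM in batch 1 and 86.2 and 185 RPM in batch 2.

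With DESeq2 in the same design, 56 MRP genes were given an adjusted p. Of these 3 rose, all of the small subunit, and 0 fell, against 4.02% up and 1.67% down of all genes that DESeq2 gave an adjusted p. MRPS7 had a log2 fold change of 1.04 (SE 0.32, DESeq2 adjusted p = 0.0267), MRPS18C 1.09 (SE 0.34, DESeq2 adjusted p = 0.0307) and MRPS6 0.93 (SE 0.31, DESeq2 adjusted p = 0.0439). MRPS6 had 163 RPM in siCtrl and 236 after siStar-PAP of batch 1, and 164 and 241 RPM in batch 2. In GENCODE the MRPS6 sites also lie in another gene of the same strand, so that their reads cannot be given to MRPS6 alone. MRPS18C had 330 and 454 RPM in batch 1, but only 5.94 and 12 RPM in batch 2.

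The batches were set side by side for the 63 MRP genes with more than 50 reads in both. Of these, 35 lay above the median of all genes in both batches and 9 below it in both, so that 69.8% kept their side, against 65.3% of 6542 genes. Without reference to that median, 20 were higher than siCtrl in both batches, 17 lower in both, 23 lower in batch 1 and higher in batch 2, and 3 the reverse. No MRP gene could be more than 2-fold from siCtrl in the same direction in both batches, since 0 were so higher in batch 1 and 0 so lower in batch 2. Of the 6542 genes, 72 were so higher in both batches and 401 so lower.

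**Figure D4:**
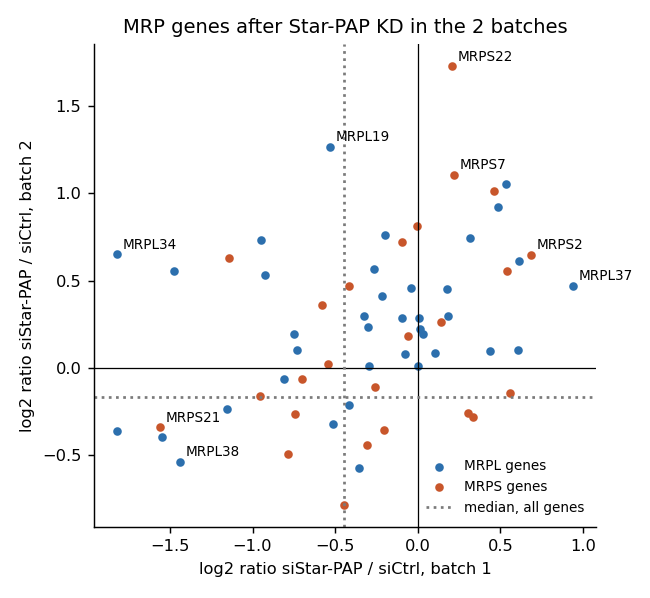
Log2 ratio of siStar-PAP to siCtrl in batch 1 (x axis) and batch 2 (y axis) for the 63 MRP genes with more than 50 reads in both, 1 point per gene, with 8 genes named. Solid lines mark equal levels and dotted lines the median of all genes (−0.45 and −0.16). MRPL34 lies at −1.82 and 0.65, and MRPL37 at 0.94 and 0.47.

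Other genes of mitochondrial translation were set beside them. A list of 8 held mitoribosomal proteins not named MRPL or MRPS, such as DAP3 and PTCD3, and OXA1L, which is not itself a ribosomal protein. Of these 8, 0 passed edgeR, with a median log2 fold change of −0.12. The 2 above 0 were MRP63 (0.40) and OXA1L (0.39). Of 11 mitochondrial translation factors, 0 passed, with a median of 0.04. TUFM, the mitochondrial elongation factor Tu, had a log2 fold change of 0.93 in edgeR (adjusted p = 0.189), and it was the 1 that DESeq2 called up (adjusted p = 0.0181). Of 19 assembly and RNA handling factors, 1 fell, MTG1, a GTPase of mitoribosome assembly, with a log2 fold change of −1.67 (SE 0.39, edgeR adjusted p = 0.0219). Of 76 cytosolic ribosomal protein genes, 4 rose and 0 fell, with a median of 0.86. These calls rest on the batch block, since without it edgeR called 0 of all 11878 genes.

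The same lists had these medians in the single pairs. The list of 8 that includes OXA1L had a median log2 ratio of −0.84 after siStar-PAP of batch 1, −0.06 in batch 2, −0.55 after siPAPα, −0.57 after siPAPγ and −0.63 after siPAPα+γ. Cytosolic ribosomal protein genes had 0.45, 0.59, 0.59, 0.19 and 0.27, in the same order, above the MRP median in each. Members of a list were not replicates, and the differences between lists were not tested.

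PAS use was compared by Fisher's exact test, each PAS against the other sense PASs of its gene, with Benjamini-Hochberg adjustment over all genes. Calls required an adjusted p below 0.05 and a share that moved by 10 percentage points or more. The test compares the reads of 2 libraries, not conditions. It called a PAS in 12 of 39 MRP genes (30.8%) in siStar-PAP of batch 1, against 56.6% of all genes tested. The numbers were 16 of 39 (41%, against 58.1%) in siPAPα, 11 of 38 (28.9%, against 47.4%) in siPAPγ, 16 of 46 (34.8%, against 53%) in siPAPα+γ and 6 of 39 (15.4%, against 17.6%) in siStar-PAP of batch 2. Without a minimum change the MRP share was 76.9%, against 75.7%, in siPAPα, and 69.6%, against 70.9%, in siPAPα+γ. In siPAPγ the MRP share was then 57.9%, against 62.3%. In siStar-PAP it was 51.3%, against 73.9%, in batch 1 and 23.1%, against 22.1%, in batch 2. MRP genes had fewer PASs than other genes, as given above, and the part of this in their lower share at 10 percentage points was not tested.

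MRPL19 shifted to the 3′-most of its PASs listed in batch 1, 6455 nt downstream of the 5′-most one. That PAS held 11 of 1074 reads (1.02%) in siCtrl of batch 1, and 11 of 1083 (1.02%) in the double KD table, which lists siCtrl with other sites. It held 20.5% after siPAPα, 13.2% after siPAPγ and 11.6% after siPAPα+γ, and 2.4% after siStar-PAP. Fisher's exact test gave an adjusted p of 3.3e-53 after siPAPα, and the counting intervals of siCtrl and siPAPα did not overlap. In batch 2 the same PAS held 72.3% in siCtrl and 79.3% after siStar-PAP, so that the difference between the siCtrl libraries of the batches exceeded that between any KD library and its siCtrl. In GENCODE the site also lies in another gene of the same strand.

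MRPL3 moved towards the upstream of its main PASs, the one with ATTAAA shown above. Its downstream main PAS held 68.4% of MRPL3 reads in siCtrl, 43.1% after siStar-PAP, 33.1% after siPAPα, 34.4% after siPAPγ and 30.1% after siPAPα+γ. The upstream main PAS held 24.4%, 35.8%, 56.1%, 53.4% and 62.9%, and siCtrl was the lowest of the 5. In the double KD table, against which siPAPα+γ was tested, siCtrl had 71.7% at the downstream PAS and 25.6% at the upstream one. All 4 changes were called at both sites. In batch 2 the downstream PAS held 57.9% in siCtrl and 54.1% after siStar-PAP, a change in the same direction of less than 10 percentage points. In siStar-PAP of batch 1, a PAS 966 nt further downstream also differed, with 4.62% of reads in siCtrl and 17.4% after siStar-PAP.

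MRPL2, which binds rRNA at the core of the large subunit, moved the other way. Its 3′-most PAS held 34.3% of reads in siCtrl, 30.3% after siStar-PAP, 64.4% after siPAPα, 69.2% after siPAPγ and 67.6% after siPAPα+γ. Its intronic PAS held 26.5%, 16.9%, 10.8%, 5% and 7.57%, in the same order. In the double KD table siCtrl had 33.3% and 25.7% at these PASs. Both changes were called in siPAPα, siPAPγ and siPAPα+γ and neither in siStar-PAP, and the difference between KDs was not tested. In batch 2 the 3′-most PAS held 9.57% in siCtrl and 7.06% after siStar-PAP. In GENCODE the MRPL2 sites also lie in another gene of the same strand, ENSG00000288564, so that their reads cannot be given to MRPL2 alone.

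In MRPL14 the upstream main PAS, 59 nt before the next, held 50.7% of reads in siCtrl, 70.2% after siStar-PAP, 74.3% after siPAPα, 63.5% after siPAPγ and 75.5% after siPAPα+γ, the last against 59.1% for siCtrl in the double KD table. All 4 increases were called, and in batch 2 the same PAS went from 80.6% in siCtrl to 88% after siStar-PAP without a call. Its 3′-most PAS, 9705 nt downstream of the upstream main one, held 5.56% in siCtrl.

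At MRPS11 an intronic PAS and the main PAS of the 3′-most exon lie 10129 nt apart. The intronic PAS was called up in siStar-PAP and down in siPAPα and siPAPα+γ, and the 3′-most-exon PAS was called up in siPAPα, siPAPγ and siPAPα+γ. The intronic PAS held 28.6% of reads in siCtrl, 52.1% after siStar-PAP, 9% after siPAPα, 20.1% after siPAPγ and 18.6% after siPAPα+γ. The 3′-most-exon PAS held 34.6%, 26.2%, 70.5%, 56.9% and 66.1%. In the double KD table siCtrl had 31.4% at the intronic PAS and 37.9% at the 3′-most-exon PAS. The increase of the intronic PAS in siStar-PAP was called in both batches, with 17.5% in siCtrl and 31.7% after siStar-PAP of batch 2. In batch 2 another intronic PAS, 28 nt downstream, fell from 15.5% to 5.29% of reads.

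**Figure D5:**
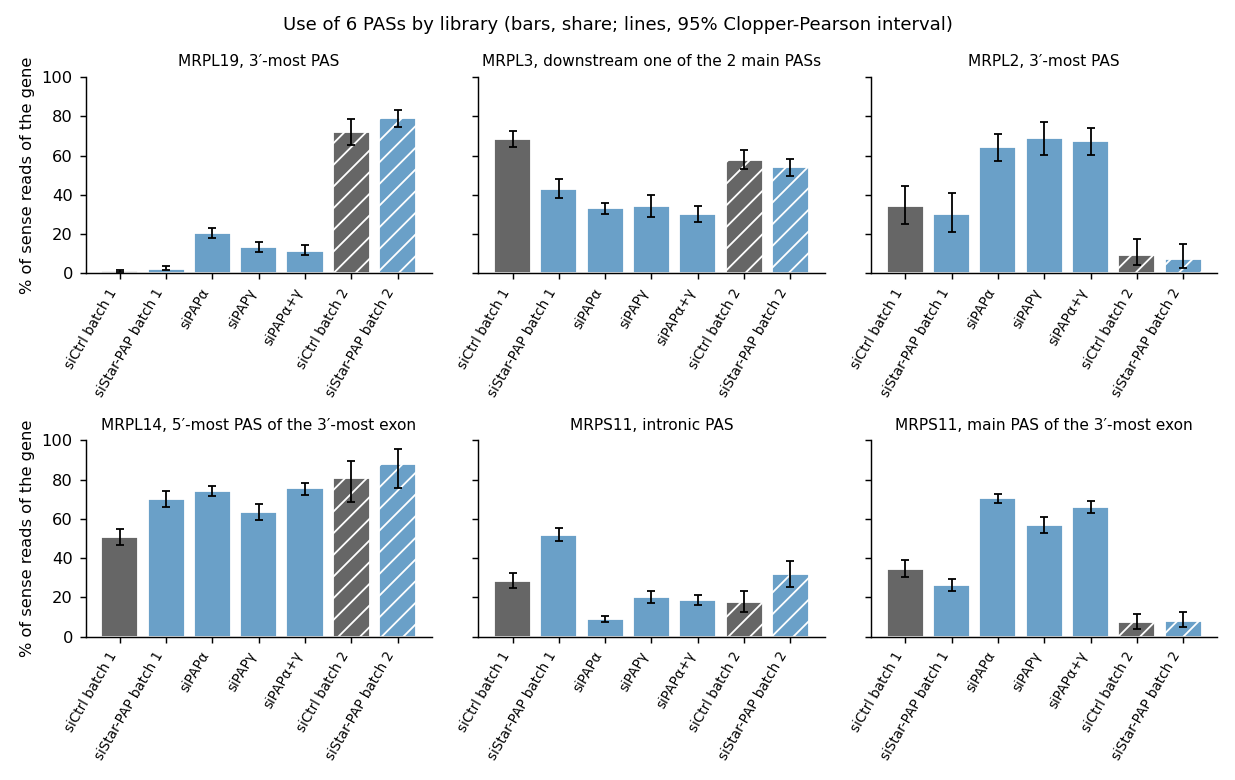
Share of the sense reads of the gene at 6 PASs in the 7 libraries (bars, percent), with 95% Clopper-Pearson intervals that cover counting error only. Grey bars are siCtrl of the batch 1 and batch 2 tables, blue bars KD libraries and hatched bars batch 2. MRPL19 shows 1.02% in siCtrl and 20.5% after siPAPα, and the intronic PAS of MRPS11 is higher in siStar-PAP than in siCtrl in both batches.

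Among lower genes, MRPL49 had 32 reads in siCtrl, of which 40.6% lay at its 3′-most PAS, and 191 after siPAPα, of which 83.8% lay there, with 94% after siPAPα+γ. MRPS22 had 10 of 70 reads (14.3%) at its 3′-most PAS in siCtrl and 71 of 117 (60.7%) in siStar-PAP. MRPL16 had an intronic PAS with 16 of 46 reads (34.8%) in siCtrl, 11.2% after siPAPα and 7.84% after siPAPα+γ. MRPS25, in the small subunit, had 69.1% of reads at its 5′-most PAS of the 3′-most exon in siCtrl, 84.1% after siPAPα and 80.3% after siPAPγ. Its largest called change was a fall, at the PAS at position 15093715 of chr3. That PAS changed by −24.2 percentage points in siStar-PAP of batch 2, and by 3.67 without a call in batch 1. MRPL32 and MRPL35 had called PASs in at least 2 comparisons on 129 reads or fewer in siCtrl.

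Star-PAP KD in both batches could be compared at 61 PASs of 31 MRP genes. Of the 12 called in batch 1, in 8 genes, 9 had the same sign in batch 2 (75%), against 61.7% of 2476 such PASs of all genes. Several were PASs of 1 gene whose shares move against each other, so that they are not independent, and the difference was not tested. In both batches 2 MRP PASs were called (16.7%, against 12.3%), each in the same direction. These were the intronic PAS of MRPS11 and the PAS of MRPL4, a large-subunit protein, at position 10370731 of chr19, which went from 57.1% to 25% of 35 and 48 reads in batch 1 and from 100% to 71.9% of 36 and 32 reads in batch 2. Some changes were seen in batch 2 alone. Chosen after their values were seen, the upstream PAS of MRPS15 differed by 42.8 percentage points in batch 2 and by −1.14 in batch 1, and the upstream PAS of MRPL17 by 32.8 and 3.99. MRPS14 had opposite signs, with 10 percentage points in batch 1 and −20.0 in batch 2 at its upstream PAS.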

How the data were processed

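Total RNA of HEK293 cells was profiled by 3′READS or 3′READS+ in 7 libraries. The authors aligned the reads, took unique alignments with untemplated As as PASS reads, merged nearby sites, dropped rare ones and assigned sites to RefSeq genes. The deposited values are raw counts of PASS reads per site, and the submitters' processing notes name hg19 and Bowtie2. Members and lists were chosen with earlier results of these data known.

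Sense PASs were summed per gene. RPM used the PASS read totals that the study lists for each library, since the tables hold 54.5–70.5% of them. Ratios used genes with more than 50 reads in the pair and a threshold of 2-fold. siStar-PAP was tested over both batches with edgeR 4.0.16 (quasi-likelihood, TMM factors, default filter, R 4.3.3) or DESeq2 1.42.0 as the alternative, and p-values were Benjamini-Hochberg adjusted over all genes. Batch was a block because each batch has its own protocol and siCtrl. The deviations of siCtrl and siStar-PAP of a batch from their group means correlated at 0.858 over 11878 genes, and this pairing comes from the batch labels. PAS use was tested by a two-sided Fisher's exact test on PASs with at least 5% of the reads of a gene, with scipy 1.17.1 in Python 3.11.15, in place of the study's own program. Exact Clopper-Pearson and Poisson intervals at the 95% level cover counting error only, and reads without molecular identifiers are not independent molecules. The libraries are not said to come from separate cultures, so that the p-values of edgeR and DESeq2 measure the spread between libraries. Those of Fisher's exact test compare the reads of 1 library with those of another and hold no spread between libraries. All steps were tested on simulated data.

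Sequences and annotation came from GRCh37 (hg19) and GENCODE release 44 lifted to it. The motifs AATAAA and ATTAAA were searched in the 40 nt before a site and ATA in the −100 to −41 nt region, all on the strand of the gene. Named were, per pair, the 3 highest and 3 lowest ratios, the 5 highest and 5 lowest mean levels, members passing edgeR or, since there were none, DESeq2, the 12 members with the largest called PAS change among those called in at least 2 pairs, the MRPS18 paralogs and the targeted genes. Other members named have the lowest adjusted p or are examples. The double KD table repeats siCtrl of batch 1 with other sites listed, and 48 of 76 members had identical siCtrl reads in both. Alternatives covered the scale, the read filter, the fold, the tool, the block and the PAS filters. Upstream antisense sites were kept out of the main values.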

Additional observations from a re-analysis of the deposited data

Results flagged for a closer look

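Reads at sites upstream of and antisense to MRP genes were not part of the comparisons and were looked at because they exceeded siCtrl in siPAPα+γ. In the double KD table, 15 such sites held 517 reads in siPAPα+γ, or 27.5 RPM (counting interval 25.2–29.99), and 156 reads in siCtrl, or 13.7 RPM. Over all genes, upstream antisense sites went in the other direction, from 4285 RPM in siCtrl to 3100 RPM in siPAPα+γ. The most-read of these sites, antisense to MRPL20 at position 1346062 of chr1, had 30 reads in siCtrl and 258 in siPAPα+γ. Without that site the values were 11 RPM in siCtrl and 13.8 RPM in siPAPα+γ. In the batch 1 table, 8 such sites held 5.78 RPM in siCtrl, 5.98 after siStar-PAP, 5.42 after siPAPα and 3.58 after siPAPγ. In batch 2, 12 sites held 25.6 RPM in siCtrl and 32 after siStar-PAP, with overlapping counting intervals. The difference in siPAPα+γ has no replicate and was not tested.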

How the results depend on the processing

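In 4 of the 5 pairs the same siCtrl library was used and there was no replicate, and several members rested on under 50 reads per library. With the replicate block, edgeR called 0 MRP genes, and 11 were up at an unadjusted p below 0.05. Without the replicate block it called 0, with 0 at an unadjusted p, and 0 of all 11878 genes in place of 146 up and 128 down, so that the calls of MTG1 and of 4 cytosolic ribosomal protein genes were lost too. RLE factors and no filter gave 0 MRP genes as well, whereas DESeq2 called 3 up. The adjusted p of MRPL15, 0.116, ranged from 0.086 without a filter to 1.00 without the block.

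Numbers of MRP genes higher and lower by more than 2-fold moved with the scale. They are given in the report for TMM factors. DESeq2 size factors gave 7 and 4 in siStar-PAP of batch 1, 12 and 4 in siPAPα, 5 and 1 in siPAPγ and 5 and 5 in siPAPα+γ, and TMM factors 7 and 5, 12 and 4, 5 and 1, and 5 and 5. Totals of the tables gave 4 higher in siPAPα, 3 and 2 in siPAPγ, and 3 and 8 in siPAPα+γ. A 1.5-fold threshold gave 4 and 19, 12 and 19, 5 and 19, and 5 and 23, and 16 and 1 in siStar-PAP of batch 2. At least 10 reads gave 8 higher in siStar-PAP of batch 2, 4 in siPAPα and 3 in siPAPα+γ. At least 200 reads gave 2 higher in siStar-PAP of batch 2, 0 higher and 5 lower in siPAPγ and 8 lower in siPAPα+γ. The distance of the MRP median from that of all genes after Star-PAP KD, 0.31 as a mean of both batches, ranged from 0.24 to 0.39 with 1 batch left out. Without a minimum change in PAS use, 20 MRP genes were called in siStar-PAP of batch 1 (51.3%, against 73.9% of all genes) and 30 in siPAPα (76.9%, against 75.7%). The numbers were 22 in siPAPγ (57.9%, against 62.3%) and 32 in siPAPα+γ (69.6%, against 70.9%). The causes of these moves beyond the thresholds themselves were not tested.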
